A study of Homo sapiens with 12 samples.

Results

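RNA recovered with Flag-tagged TDP43 was set against RNA recovered with Flag-tagged SRSF3 in MDA-MB231 cells, an established triple-negative breast cancer line. Genes were kept when they had at least 1 FPKM (fragment density scaled to transcript length and library size) in both input libraries, and 8896 of the 60675 genes in the deposited table, or 14.7%, passed. For each of them the recovery with a protein was log2((RIP FPKM + 1)/(input FPKM + 1)), and the recovery difference was the recovery with Flag-TDP43 minus the recovery with Flag-SRSF3. A positive difference therefore means more of the RNA with Flag-TDP43.

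The series holds 12 libraries, of which 4 are compared here: a Flag RIP from cells that overexpress Flag-TDP43, the input of those cells, a Flag RIP from cells that overexpress Flag-SRSF3, and the input of those cells. RIP (RNA immunoprecipitation) pulls down a tagged protein with an antibody and sequences the RNA that comes with it. Each of the 4 groups had 1 library, so there is no replicate error, no test was possible for the RIP values, and every difference below is a description of these libraries. No mock RIP or RIP from untagged cells is named in the labels used here, and the labels do not say whether the overexpressing cells were pools or clones. A further 6 libraries, of MDA-MB231 cells with 1 named hairpin against TDP43 (sh_TDP43), 1 against SRSF3 (sh_SRSF3) or a control hairpin (sh_control), 2 libraries each, served as a separate readout of the same RNAs.

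TDP43, encoded by TARDBP, is a mostly nuclear RNA-binding protein that favours GU-rich sequence, represses cryptic exons and controls its own mRNA. SRSF3 is the smallest of the SR proteins, which bind exons and help recruit the spliceosome, and it also takes part in the export of intronless mRNAs such as those of histones. Each binds a wide range of transcripts, and the comparison asks which RNAs came down with one protein and not the other.

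TARDBP was at 80.4 FPKM in the Flag-TDP43 RIP and 14.2 in its input, against 1.48 FPKM in the Flag-SRSF3 RIP and 1.76 in its input. SRSF3 was at 83.4 FPKM in the Flag-TDP43 RIP and 29.3 in its input, against 91.3 FPKM in the Flag-SRSF3 RIP and 54.9 in its input. Each tagged gene was thus higher in the input of its own cells. All 8 marker genes of MDA-MB231 cells had a signal of 1 or more in an input, with sums of 1659 in the Flag-TDP43 input and 1816 in the Flag-SRSF3 input. Of the other cell types, 7 of 11 luminal breast markers, 1 of 8 fibroblast markers, 2 of 8 haematopoietic markers and 2 of 6 packaging cell markers reached that level, with sums in the Flag-TDP43 and Flag-SRSF3 inputs of 791 and 751 for luminal, 2.73 and 3.28 for fibroblast, 2.15 and 3.17 for haematopoietic and 11.4 and 13.3 for packaging cell markers. As inferred from the smallest steps between values, 1 FPKM stood for a mean coverage of 5.53 to 5.69 reads per base in the 4 libraries; the number of fragments is unknown, so no counting intervals are given.

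In these libraries few RNAs were 2-fold or more above input in both RIPs. With Flag-TDP43, 1201 genes (13.5%) were 2-fold or more above input, and with Flag-SRSF3, 1076 genes (12.1%). Only 78 genes, 0.877% of those that passed, did both. That number was 362 at a fold of 1.5 and 39 with upper-quartile scaling, and the overlap was not tested. Across the 8896 genes the 2 recoveries were weakly and inversely related (Pearson r = -0.12, Spearman rho = -0.21; genes of 4 shared libraries, given as a description). The recovery difference had a median of -0.10 and quartiles of -0.99 and 0.72. In all, 1679 genes (18.9%) differed by 2-fold or more in favour of Flag-TDP43 and 2204 (24.8%) in favour of Flag-SRSF3. With each recovery centred on its median these counts were 1968 and 1894, so which direction holds more genes depended on the scaling. The counts for gene lists below stand beside these all-gene shares of 18.9% and 24.8%.

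Genes were sorted into classes by these values. TDP43-only RNAs, with a recovery of 2-fold or more with Flag-TDP43, under 2-fold with Flag-SRSF3 and a difference of 2-fold or more, numbered 965. By the mirrored rule there were 889 SRSF3-only RNAs. The TDP43-only class held 10.8% and the SRSF3-only class 9.99% of the genes that passed. A further 158 genes passed 2-fold with Flag-TDP43 and 109 with Flag-SRSF3 without a 2-fold difference between the proteins, and these were left unresolved. The remaining 6697 genes passed with neither protein. Among the TDP43-only RNAs, 156 of 965 were 2-fold or more below input in the Flag-SRSF3 RIP, as were 7.34% of all genes. Among the SRSF3-only RNAs, 359 of 889 were 2-fold or more below input in the Flag-TDP43 RIP, as were 14.3% of all genes. The class rule uses these same recoveries, so nothing is read from the shares.

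**Figure D1:**
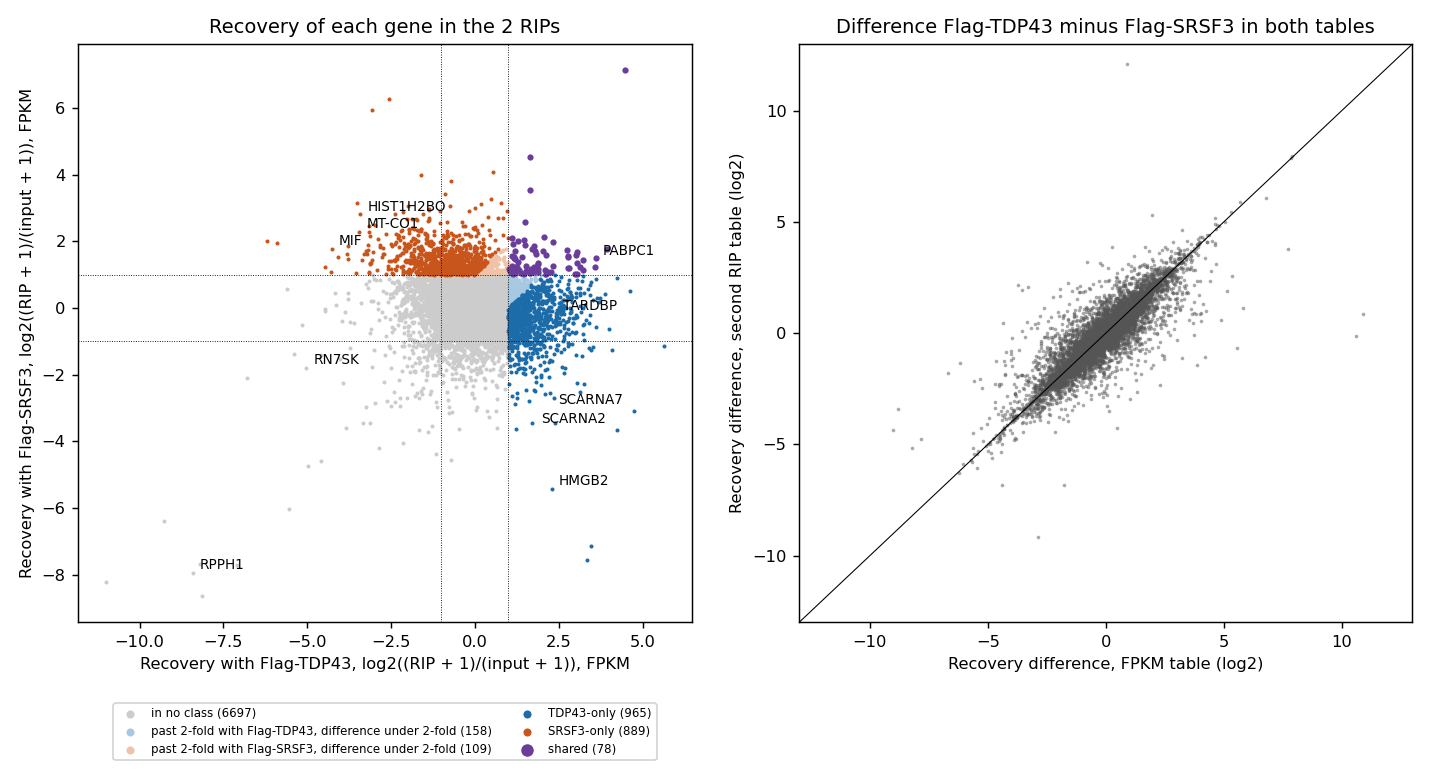
Left, recovery of each of the 8896 genes with Flag-SRSF3 (vertical) against recovery with Flag-TDP43 (horizontal), both log2((RIP + 1)/(input + 1)) of FPKM, coloured by class, with dotted lines at 2-fold. The 78 shared RNAs fill the upper right corner thinly, and most genes past 2-fold lie on one arm or the other. Right, the recovery difference from the second deposited RIP table against that from the FPKM table, both log2, with the line of equality (Pearson r = 0.87).

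A second deposited table gives a signal per gene for the same 4 libraries. The most frequent ratio of this signal to the FPKM lay between 1.09 and 1.22 in the 4 libraries, but for 47.2% to 47.6% of genes the ratio was more than 2 times that, so the 2 tables differ for many genes. Each class was therefore counted in both. By the second table, 1729 genes (19.4%) differed by 2-fold or more in favour of Flag-TDP43 and 2139 (24.0%) in favour of Flag-SRSF3, and 1317 (14.8%) and 1746 (19.6%) did so in both tables. Of the 965 TDP43-only RNAs, 672 had that class in both tables (69.6% of the FPKM class and 78.1% of the class by the second table). Of the 889 SRSF3-only RNAs, 553 did (62.2% and 77.9%), and of the 78 shared RNAs, 28 did (35.9% and 63.6%). The sign of the difference turned in the second table for 151 of the 3883 genes past 2-fold. Of the 3 classes, the shared one had the smallest share held in both tables.

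Small Cajal body RNAs (scaRNAs), which guide the modification of spliceosomal snRNAs in Cajal bodies, had the largest differences among TDP43-only RNAs of 300 bases or more. SCARNA2 (GRCh38 chromosome 1, 109100193 to 109100612, 420 bases) was at 8115 FPKM in the Flag-TDP43 RIP and 428 in its input, against 30.1 FPKM in the Flag-SRSF3 RIP and 393 in its input. SCARNA7 was at 1539 FPKM in the Flag-TDP43 RIP and 56.3 in its input, against 4.59 in the Flag-SRSF3 RIP and 46.4 in its input. The inputs were close to each other, and the 2 RIPs lay on opposite sides of them, which gives recovery differences of 7.91 and 7.83. SCARNA9, at 102 FPKM in the Flag-TDP43 RIP and 0.0811 in the Flag-SRSF3 RIP, had a difference of 6.78 from inputs near 1 FPKM. The second table gave 7.95, 7.89 and 6.07 for these 3 genes.

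Of the 12 scaRNA genes that passed the filter, 8 favoured Flag-TDP43 by 2-fold or more and 1, SCARNA6, favoured Flag-SRSF3 (difference -1.45, but 0.21 in the second table). As a group the scaRNAs were not above input with either protein: their median recovery was -0.42 with Flag-TDP43 and -1.82 with Flag-SRSF3. SCARNA10, of which the table lists 2 genes, was at 167 FPKM in the Flag-TDP43 RIP and 439 in its input, against 38.3 in the Flag-SRSF3 RIP and 514 in its input, so both RIPs were below input and its difference was 2.32. Over the 50 of 850 snoRNA and scaRNA genes that passed, the median recovery was -0.49 with Flag-TDP43 and -1.05 with Flag-SRSF3. Of these 50 genes, 6 were TDP43-only, near the 10.8% of all genes in that class. The median difference was 0.72, with 21 genes past 2-fold toward Flag-TDP43 and 9 toward Flag-SRSF3. All 8 of those with 300 bases or more leaned to Flag-TDP43, among them the U3 snoRNA gene SNORD3A, at 242 FPKM in the Flag-TDP43 RIP and 179 in its input, against 124 in the Flag-SRSF3 RIP and 248 in its input. U3 directs early cuts in the ribosomal RNA precursor. FPKM of RNAs shorter than a sequenced fragment are less certain.

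Spliceosomal snRNAs also leaned to Flag-TDP43, with a median difference of 2.29 over the 25 of 1832 genes that passed, 14 past 2-fold toward Flag-TDP43 and 4 toward Flag-SRSF3. The median was 1.02 at a pseudocount of 5 FPKM, 1.41 without the input filter and 1.56 with the mean of both inputs as denominator. U5 RNA, the snRNA at the exon ends during splicing, leaned to Flag-TDP43 in 4 of 5 genes, led by RNU5D-1 with 35.4 FPKM in the Flag-TDP43 RIP and 1.27 in its input, against 0.834 in the Flag-SRSF3 RIP and 1.87 in its input. RNU12, the U12 snRNA of the minor spliceosome, had 35.5 FPKM in the Flag-TDP43 RIP and 7.54 in its input, against 6.88 in the Flag-SRSF3 RIP and 14.4 in its input. The U4 genes RNU4-1 and RNU4-2 had differences of 3.10 and 2.34. RNU4-1 was near input with Flag-TDP43 (recovery 0.04). Of 17 genes with a U1 symbol, some of them outside the list, 8 passed toward Flag-TDP43 and 3 toward Flag-SRSF3, with a median of 0.10. RNU4ATAC, the U4atac snRNA of the minor spliceosome, went the other way, with 2.42 FPKM in the Flag-TDP43 RIP and 3.79 in its input, against 17.2 in the Flag-SRSF3 RIP and 3.53 in its input. Of 3 U2 genes, 0 passed toward Flag-TDP43 and 1 toward Flag-SRSF3, with a median of 0.04. That gene, RNU2-2P, was below input with both proteins, and its difference was -4.72 (-3.35 in the second table). Many snRNA genes are near-identical copies, so reads could be assigned to the wrong copy, and a value belongs to the copy only as far as the authors' assignment does.

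Of the 55 histone genes that passed, 28 were SRSF3-only, beside 9.99% of all genes. The list holds mainly replication-dependent genes, whose mRNAs encode the histones made during S phase and end in a stem-loop rather than a poly(A) tail. The lowest difference of the class was that of RP11-632C17__A.1, a transcript of 474 bases (-9.01, and -4.38 in the second table). LINC00152, a long noncoding RNA, had -6.67, and -1.79 in the second table. Over the 55 of 97 histone genes that passed, the median recovery was -1.67 with Flag-TDP43 and 1.25 with Flag-SRSF3, and the median difference was -2.90. The difference passed 2-fold toward Flag-SRSF3 in 37 genes, 36 of them in both tables, and toward Flag-TDP43 in 9. HIST1H2BO (GRCh38 chromosome 6, 27893463 to 27893843) was at 38.3 FPKM in the Flag-TDP43 RIP and 420 in its input, against 3917 in the Flag-SRSF3 RIP and 556 in its input, a difference of -6.23. HIST1H2BK was at 94.6 FPKM in the Flag-TDP43 RIP and 497 in its input, against 3568 in the Flag-SRSF3 RIP and 506 in its input.

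The lean to Flag-SRSF3 was not uniform over the histone types. H2B mRNAs leaned to Flag-SRSF3 in 12 of 14 genes (median difference -3.80), H2A mRNAs in 10 of 12 (-3.46), H3 mRNAs in 8 of 10 (-2.09) and both linker H1 mRNAs (-3.57). H4 mRNAs were divided, 5 toward Flag-TDP43 and 3 toward Flag-SRSF3 of 9 (1.24). HIST1H4B was at 1240 FPKM in the Flag-TDP43 RIP and 471 in its input, against 552 in the Flag-SRSF3 RIP and 594 in its input. Of 8 variant or replication-independent histone genes, 3 leaned to Flag-TDP43 and 2 to Flag-SRSF3 (median difference -0.20). H2AFZ, a variant whose mRNA is polyadenylated, was among those toward Flag-TDP43. It was at 606 FPKM in the Flag-TDP43 RIP and 113 in its input, against 76.9 in the Flag-SRSF3 RIP and 111 in its input. H2AFZ encodes H2A.Z, which replaces H2A near active promoters, and its difference was 2.93.

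**Figure D2:**
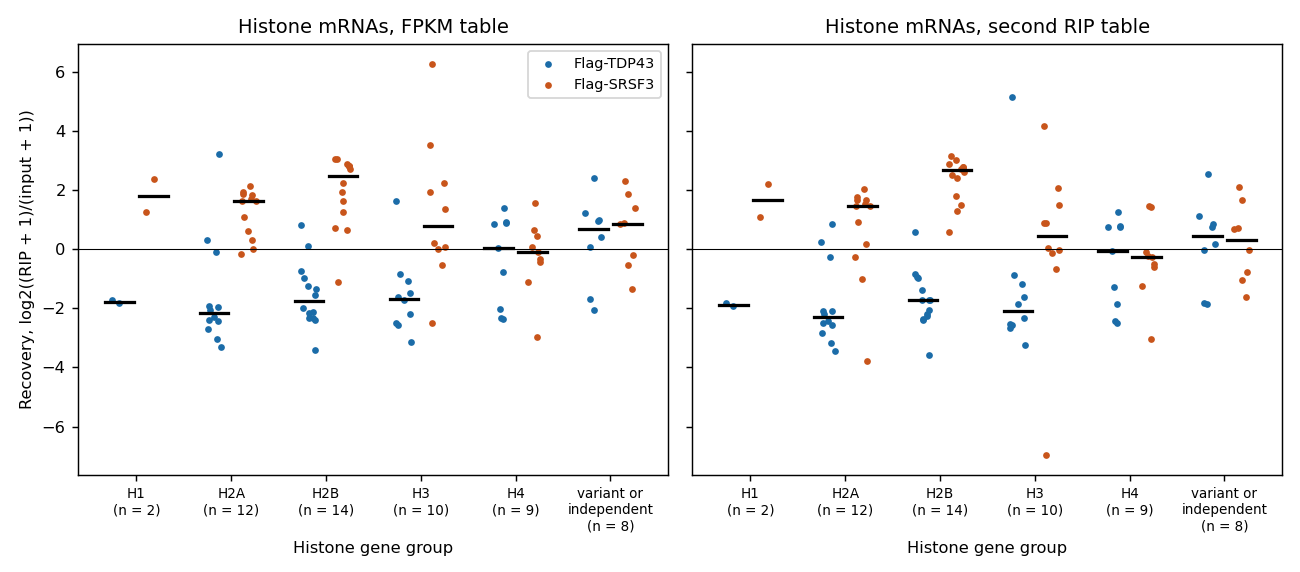
Recovery of the 55 histone mRNAs by gene group, log2((RIP + 1)/(input + 1)), with Flag-TDP43 at the left and Flag-SRSF3 at the right of each group, from the FPKM table (left panel) and the second RIP table (right panel). Points are genes and bars are medians; the medians lie on opposite sides of input in H1, H2A, H2B and H3, and near input for both proteins in H4 (0.05 and -0.10 in FPKM).

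Histone genes come in near-identical copies, and this limits the values of single genes. HIST2H4A and HIST2H4B had differences of 2.19 and -2.66, yet summed over both copies the FPKM was 140 in the Flag-TDP43 RIP and 353 in its input, against 58.7 in the Flag-SRSF3 RIP and 93.6 in its input, a difference of -0.66 (-0.21 in the second table). HIST2H3A and HIST2H3C, at -8.83 and -1.89, gave -7.15 as a sum in FPKM and -3.43 in the second table. HIST2H2AA3 and HIST2H2AA4 gave -3.80 as a sum and -3.76 in the second table. These pairs were chosen after their values were seen.

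The bases just before the transcription start (100 bases, RefSeq, GRCh38.p14) are shown for 2 H2B genes far toward Flag-SRSF3, for the H4 gene HIST1H4B, and for the copies HIST2H4A and HIST2H4B. They are printed to show these letters in genes of H2B and H4, and because the last pair shows how far gene copies can be alike. No relation of the letters to recovery was tested. Capitals mark the TATA box letters TATAAA, the CCAAT box and the octamer ATTTGCAT, searched on both strands, with none of the matches overlapping.
HIST1H2BO (chr6:27893325-27893424, plus strand): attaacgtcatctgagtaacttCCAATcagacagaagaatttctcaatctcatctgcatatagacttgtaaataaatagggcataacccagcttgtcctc
HIST1H2BK (chr6:27146859-27146958, minus strand): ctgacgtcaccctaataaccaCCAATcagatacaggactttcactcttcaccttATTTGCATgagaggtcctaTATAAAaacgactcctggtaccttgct
HIST1H4B (chr6:26027284-26027383, minus strand): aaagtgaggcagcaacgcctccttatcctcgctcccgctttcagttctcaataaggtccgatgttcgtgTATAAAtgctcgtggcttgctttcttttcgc
HIST2H4A (chr1:149832557-149832656, plus strand): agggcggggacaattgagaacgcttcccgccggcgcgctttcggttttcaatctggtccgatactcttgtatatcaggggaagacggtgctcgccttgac
HIST2H4B (chr1:149861160-149861259, minus strand): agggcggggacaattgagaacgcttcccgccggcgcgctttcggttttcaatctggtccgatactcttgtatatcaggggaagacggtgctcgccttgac

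HIST2H4A and HIST2H4B were identical at 100 of 100 of these bases, while HIST1H4B matched either of them at 49. CCAAT was in the window of 11 of 11 H2A, 10 of 10 H2B and 8 of 8 H3 genes with an entry, in 0 of 7 H4 genes, and in 18.7% of all 27305 promoters of that length. TATAAA was in 11 of 11 H2A, 6 of 10 H2B, 7 of 8 H3 and 3 of 7 H4 genes, against 5.34% of all promoters. ATTTGCAT was in 4 of 10 H2B genes, 1 of 11 H2A genes and none of the 8 H3 and 7 H4 genes, against 0.718% of all promoters. These are matches of letters before the start of the gene, outside the RNA that was recovered.

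Mitochondrially encoded RNAs also leaned to Flag-SRSF3. These transcripts are made inside mitochondria from the mitochondrial genome. Their median recovery was -1.40 with Flag-TDP43 and 1.37 with Flag-SRSF3, and of the 32 of 37 that passed the filter, 22 were past 2-fold toward Flag-SRSF3 and 1, the tRNA MT-TH, toward Flag-TDP43. MT-CO1, subunit 1 of cytochrome c oxidase, was at 23.5 FPKM in the Flag-TDP43 RIP and 265 in its input, against 1651 in the Flag-SRSF3 RIP and 336 in its input. All 13 mitochondrial mRNAs were past 2-fold in both tables, with differences between -1.63 for MT-ND5 and -5.73 for MT-CO1. The 2 ribosomal RNAs parted: MT-RNR1 had a difference of -5.68 with 0 FPKM listed in the Flag-TDP43 RIP, while MT-RNR2 was at 82.8 FPKM in the Flag-TDP43 RIP and 44.4 in its input, against 85.8 in the Flag-SRSF3 RIP and 53.0 in its input.

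mRNAs of nuclear-encoded respiratory chain subunits did not share that lean. Their median difference was 0.56 over 53 genes, with 23 past 2-fold toward Flag-TDP43 and 13 toward Flag-SRSF3. NDUFB1, an accessory subunit of complex I, was at 92.2 FPKM in the Flag-TDP43 RIP and 17.0 in its input, against 1.67 in the Flag-SRSF3 RIP and 16.3 in its input. The lean differed between complexes: 11 of 21 complex I genes went toward Flag-TDP43 and 2 toward Flag-SRSF3, while for complex IV it was 2 and 5 of 10. COX8A, a small complex IV subunit, was the lowest of the list with a difference of -3.79. Its recovery with Flag-SRSF3, 0.83, did not reach 2-fold. ATP5O and ATP5L, subunits of ATP synthase, had differences of 4.45 and 4.37.

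**Figure D3:**
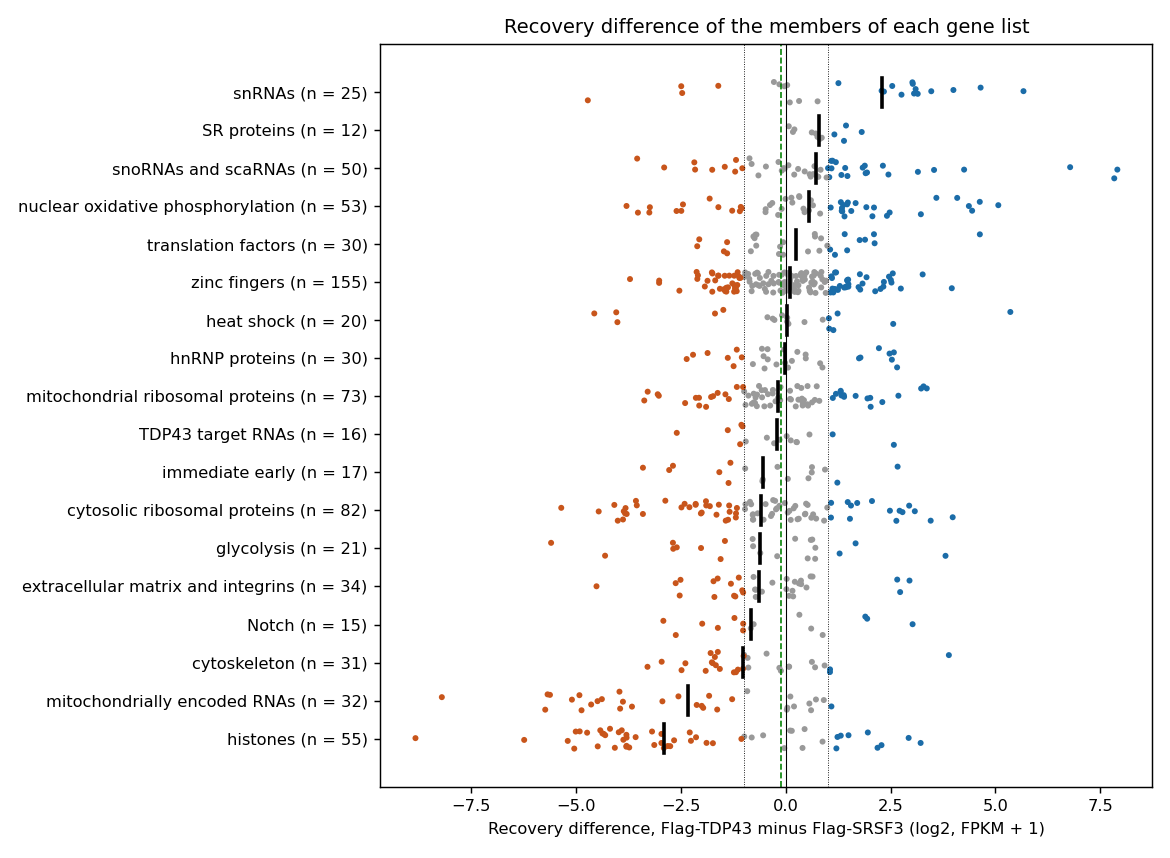
Recovery difference (log2, Flag-TDP43 minus Flag-SRSF3) of each member of 18 gene lists, with the list median as a black bar, the median of all 8896 genes as a dashed line and 2-fold as dotted lines; blue points favour Flag-TDP43 and orange points favour Flag-SRSF3 by 2-fold or more. snRNAs lie furthest to the right (median 2.29), and histones (-2.90) and mitochondrially encoded RNAs (-2.34) furthest to the left.

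Genes of translation went both ways. Of 82 cytosolic ribosomal protein mRNAs, 15 passed 2-fold toward Flag-TDP43 and 32 toward Flag-SRSF3, with a median of -0.60. RPS23, of the small subunit, had a difference of 3.98 and RPS27A, a ubiquitin fusion, 3.46, whereas RPL29 had -4.46 and RPL23A -4.09. RPL23A was at 39.0 FPKM in the Flag-TDP43 RIP and 189 in its input, against 677 in the Flag-SRSF3 RIP and 189 in its input. RPL10 had the lowest value of the list, -5.35, but -2.07 in the second table. Many ribosomal protein genes have processed copies, and the 3 RPS3A pseudogenes that passed had a median difference of 4.67 beside 3.08 for RPS3A itself. Of 73 mitochondrial ribosomal protein mRNAs, 16 passed in each direction, near the all-gene shares. Among 30 translation factors, 9 favoured Flag-TDP43 and 5 Flag-SRSF3: EIF4A2, an mRNA helicase subunit of initiation, was at 93.5 FPKM in the Flag-TDP43 RIP and 13.8 in its input, against 7.63 in the Flag-SRSF3 RIP and 32.6 in its input.

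Other SRSF3-only RNAs included MIF and FTL. MIF, a cytokine-like tautomerase, was at 11.4 FPKM in the Flag-TDP43 RIP and 239 in its input, against 743 in the Flag-SRSF3 RIP and 217 in its input. FTL, the ferritin light chain that stores iron, was at 91.0 FPKM in the Flag-TDP43 RIP and 814 in its input, against 3974 in the Flag-SRSF3 RIP and 725 in its input. Both were thus well under input with Flag-TDP43 and well over it with Flag-SRSF3. Of 31 cytoskeletal genes, 17 passed 2-fold toward Flag-SRSF3 and 3 toward Flag-TDP43 (median -1.02), VIM (vimentin), PFN1 (profilin) and TUBB (beta tubulin) with differences of -3.29, -2.96 and -2.48. MYL6, a myosin light chain, stood apart at 3.89. Of 21 glycolytic genes, 8 went toward Flag-SRSF3 and 3 toward Flag-TDP43: GAPDH had -4.31, ALDOA -2.69 and GPI -5.59 (-2.16 in the second table), while LDHB was at 1084 FPKM in the Flag-TDP43 RIP and 158 in its input, against 65.7 in the Flag-SRSF3 RIP and 136 in its input.

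Protein-coding members of the TDP43-only class included HMGB2, HSPD1, TM4SF1 and PTMA. HMGB2, a DNA-bending chromatin protein, was at 297 FPKM in the Flag-TDP43 RIP and 59.9 in its input, against 0.374 in the Flag-SRSF3 RIP and 58.0 in its input. Its difference was 7.71 in FPKM and 3.80 in the second table. HSPD1, the mitochondrial chaperonin HSP60, had 5.36 in FPKM and 2.58 in the second table, and PTMA (prothymosin alpha) 4.88 and 0.60. The size of these 3 differences thus depended on the table. NDUFB1 and RPS3AP6, a processed copy of RPS3A, kept 4.99 and 4.84 there, beside 5.07 and 4.81 in FPKM.

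**Figure D4:**
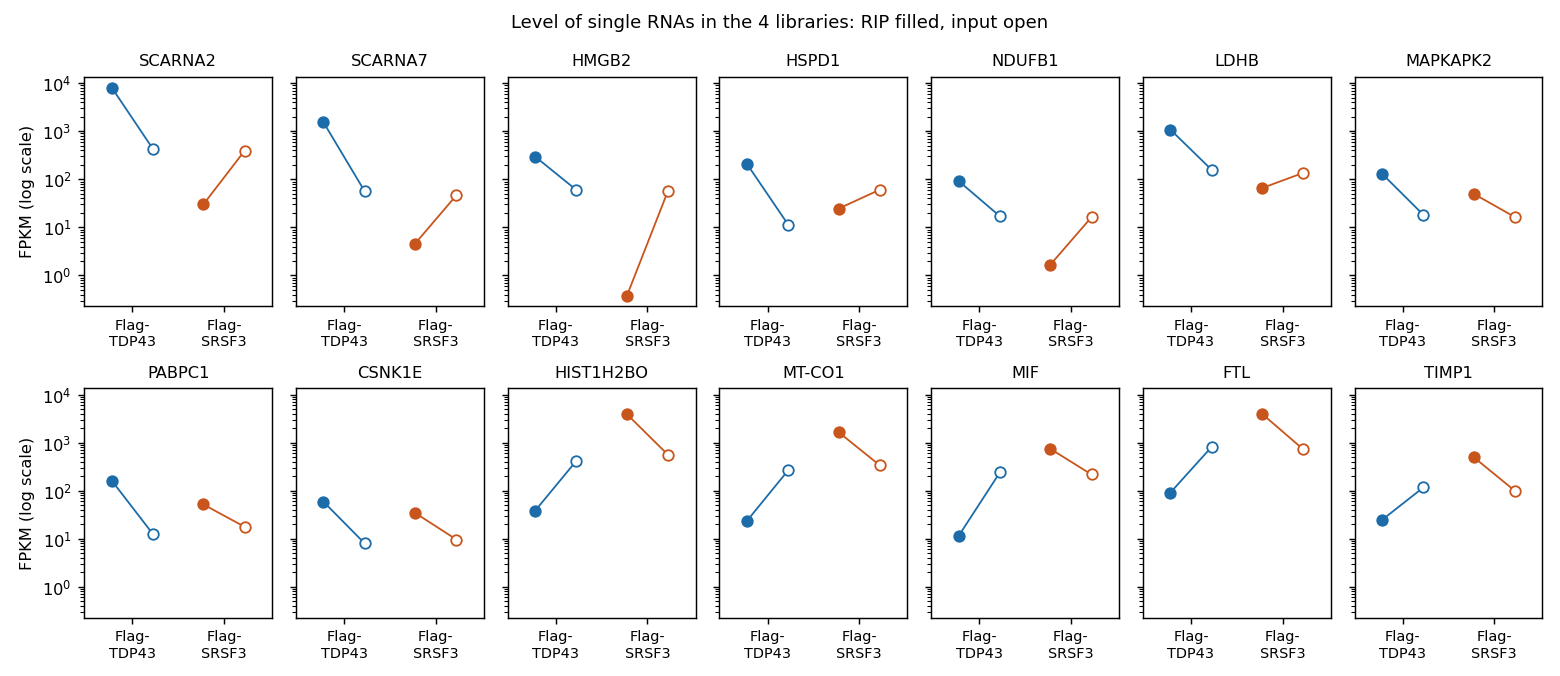
FPKM on a log scale of 14 RNAs in the 4 libraries, with the RIP as a filled point and its input as an open point, Flag-TDP43 (blue) left of Flag-SRSF3 (orange). In the first 6 RNAs the Flag-TDP43 RIP is above and the Flag-SRSF3 RIP below input, in MAPKAPK2, PABPC1 and CSNK1E both RIPs are above input, and in the last 5 the Flag-SRSF3 RIP is above and the Flag-TDP43 RIP below input.

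Surface and matrix genes leaned to Flag-SRSF3 in 13 of 34 cases and to Flag-TDP43 in 3, namely ITGB1, ITGB3 and PLAU. ITGB1 (integrin beta 1) was at 565 FPKM in the Flag-TDP43 RIP and 125 in its input, against 99.9 in the Flag-SRSF3 RIP and 173 in its input. PLAU, the urokinase that activates plasminogen, was at 872 FPKM in the Flag-TDP43 RIP and 79.0 in its input, against 216 in the Flag-SRSF3 RIP and 124 in its input, so it was above input with both. TIMP1, a metalloprotease inhibitor, was at 24.7 FPKM in the Flag-TDP43 RIP and 116 in its input, against 497 in the Flag-SRSF3 RIP and 98.9 in its input. ITGB3 (integrin beta 3) had a difference of 2.73.

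Genes of regulators were mixed. Of 17 immediate early genes, 6 leaned to Flag-SRSF3 and 2 to Flag-TDP43: FOSL1, an AP-1 subunit, had -2.78 and KLF4, a zinc finger factor, -2.69, while KLF6 had 2.67 in FPKM but 0.79 in the second table. MYC, the growth-promoting transcription factor, was at 10.7 FPKM in the Flag-TDP43 RIP and 31.1 in its input, against 128 in the Flag-SRSF3 RIP and 32.5 in its input. Of 15 Notch pathway genes, 7 leaned to Flag-SRSF3 and 3 to Flag-TDP43, with LFNG (a glycosyltransferase of Notch) at 3.03 and MAML2 (a coactivator of Notch) at -1.99. Of 20 heat shock genes, 6 leaned to Flag-TDP43 and 5 to Flag-SRSF3, with HSPB1 at -4.56. The near-identical HSPA1A and HSPA1B had differences of -4.04 and -4.01 in FPKM, but their sum was at -0.88 in the second table. Of 155 zinc finger genes, 35 passed in each direction in FPKM, near the all-gene shares, and 45 toward Flag-TDP43 and 31 toward Flag-SRSF3 in the second table. Their median of 0.11 became -0.56 at an input minimum of 5 FPKM.

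Of 30 hnRNP genes, 7 passed toward each protein, near the all-gene shares of 18.9% and 24.8%. HNRNPA1 was at 181 FPKM in the Flag-TDP43 RIP and 60.8 in its input, against 37.3 in the Flag-SRSF3 RIP and 74.1 in its input, and PTBP1 and RALY had differences of -2.21 and -2.36. Of 12 SR protein genes, 4 leaned to Flag-TDP43 and 0 to Flag-SRSF3 (median 0.79), the highest being SRSF5 at 1.81. SRSF5 was below input with both proteins (recovery -0.56 with Flag-TDP43 and -2.37 with Flag-SRSF3). Only 1 of the 12 genes was TDP43-only. SRSF3 itself had a difference of 0.76, and -0.26 in the second table. Of 12 paraspeckle genes, 3 went toward Flag-TDP43 and 4 toward Flag-SRSF3, among them SFPQ at -1.86. Of 16 RNAs known as TDP43 targets, 2 leaned to Flag-TDP43 and 5 to Flag-SRSF3. TARDBP had 2.58, but it is the gene overexpressed in the Flag-TDP43 cells. Its values do not separate the added gene from the cells' own. GRN, the other that leaned to Flag-TDP43, had 1.12 (0.47 in the second table), and PFKP had -2.60 (-0.98 in the second table). NEAT1, the long RNA that builds paraspeckles, was under the input minimum in FPKM (0.310 in the Flag-TDP43 input and 0.543 in the Flag-SRSF3 input) and had a difference of 1.79 in the second table. MALAT1, a nuclear speckle RNA, had 0.57 in FPKM and 2.30 in the second table.

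Of 13 polarity genes, 1 passed 2-fold toward Flag-TDP43 (CDC42, a small GTPase, at 2.80) and 2 toward Flag-SRSF3. PARD3, a scaffold of the PAR complex, was at 7.25 FPKM in the Flag-TDP43 RIP and 5.12 in its input, against 6.34 in the Flag-SRSF3 RIP and 5.07 in its input, close to input with both. NUMB, an inhibitor of Notch, was under the minimum in the Flag-TDP43 input (0.609 FPKM), and its recoveries of 0.69 and 0.25 did not reach 2-fold. The 5 RNA polymerase III transcripts that passed were below input in both RIPs. RN7SK was at 3326 FPKM in the Flag-TDP43 RIP and 108880 in its input, against 33194 in the Flag-SRSF3 RIP and 115620 in its input. RN7SL1, of the signal recognition particle, was at 289 FPKM in the Flag-TDP43 RIP and 81970 in its input, against 209 in the Flag-SRSF3 RIP and 83887 in its input.

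Shared RNAs were few, and 54 of the 78 differed by less than 2-fold between the proteins. Recovery of 4-fold or more with both was seen for 2 genes, ECH1 and the 56-base FP236383.3; ECH1 was not shared in the second table. The 28 shared in both tables included PABPC1, the cytoplasmic poly(A)-binding protein, at 162 FPKM in the Flag-TDP43 RIP and 12.5 in its input, against 51.7 in the Flag-SRSF3 RIP and 17.7 in its input. MAPKAPK2, a stress kinase downstream of p38, had a recovery of 2.77 with Flag-TDP43 and 1.55 with Flag-SRSF3. CSNK1E, a casein kinase of the circadian clock, was at 59.0 FPKM in the Flag-TDP43 RIP and 7.98 in its input, against 34.5 in the Flag-SRSF3 RIP and 9.64 in its input. Others were JUND (an AP-1 subunit), SFN (14-3-3 sigma), CLN6, ATP6V0D1, SHISA5, MT1E (a metallothionein) and SYDE1, named after their values were seen. SHISA5 was at 100 FPKM in the Flag-TDP43 RIP and 28.2 in its input, against 79.1 in the Flag-SRSF3 RIP and 23.7 in its input, and was one of those recovered nearly alike.

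Transcript length differed between the classes. The median exon length was 4722 bases in TDP43-only RNAs, 3549 in SRSF3-only RNAs and 3966 in shared RNAs, against 4622 over all genes with an annotated length (92.5% of those that passed). In the quintile of genes with the shortest exons 37.4% leaned to Flag-SRSF3 by 2-fold or more, and in the quintile with the longest 15.6%, while the share leaning to Flag-TDP43 was 18.7% and 16.9%. The relation across genes was weak (Spearman rho = 0.14 between exon length and the difference, n = 8229, genes of the same 4 libraries). The higher of the 2 inputs had a median of 7.31 FPKM in TDP43-only, 8.28 in SRSF3-only and 8.37 in shared RNAs, against 5.98 over all genes that passed. Nearest the input minimum, SLC11A2, PXDN and SMC2 lay just inside with a lower input of 1.00 FPKM and differences of -0.06, -2.73 and 1.07, and CRAMP1, ELFN2 and NDP just outside with 0.999, 0.997 and 0.996 FPKM and differences of -0.23, -1.48 and -0.65.

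The hairpin libraries gave a readout whose values do not enter the class rule. Counts were compared with edgeR's quasi-likelihood test at a Benjamini-Hochberg adjusted p under 0.05 over 15026 genes. TARDBP was at 34.4 and 31.3 CPM in the sh_TDP43 libraries, against 168 and 125 CPM in the sh_control libraries, a log2 change of -2.15 with an SE of 0.13 (edgeR adjusted p = 3.51e-08). SRSF3 was at 64.0 and 61.7 CPM in the sh_SRSF3 libraries, against 459 and 404 CPM in the sh_control libraries, a log2 change of -2.78 with an SE of 0.101 (edgeR adjusted p = 1.63e-10). SRSF3 also fell by 1.23 in sh_TDP43 cells (edgeR adjusted p = 3.05e-07). Both comparisons use the same control libraries.

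In sh_TDP43 cells 44.8% of all genes tested changed, 20.7% higher and 24.1% lower, and without sh_TDP43 replicate 2 28.9% changed, 12.6% higher and 16.2% lower. Of 880 TDP43-only genes tested, 169 were higher and 304 lower (34.5%), and of 809 SRSF3-only genes, 141 were higher and 284 lower (35.1%). Genes recovered with neither protein had 32.9% lower, so both classes lay near that share. Of 71 shared genes, 4 were higher and 38 lower (53.5%), with a median log2 change of -0.29. The median was -0.09 for genes recovered with neither and -0.00 over all genes tested. Of the 24 tested genes that were shared in both RIP tables, 1 was higher and 16 were lower. With upper-quartile scaling, 7 of the 71 shared genes were higher and 29 lower (40.8%), beside 26.9% lower for genes recovered with neither. Without sh_TDP43 replicate 2 the genes called higher numbered 112 in the TDP43-only class and 90 in the SRSF3-only class. CLN6, whose loss causes a lysosomal storage disease, was at 18.2 and 15.4 CPM in the sh_TDP43 libraries, against 35.0 and 29.1 CPM in the sh_control libraries, and fell by 0.93 (SE 0.143, adjusted p = 0.000132).

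In sh_SRSF3 cells 66.9% of genes changed, 32.5% higher and 34.4% lower. Of the TDP43-only genes, 375 were higher (42.6%) and 265 lower (30.1%), with a median of 0.13. Genes recovered with neither protein had 40.2% higher and 33.4% lower, so the TDP43-only class lay near those shares. Of the SRSF3-only genes, 224 were higher and 359 lower (44.4%), with a median of -0.18 beside 0.08 for genes recovered with neither. Of the 71 shared genes, 19 were higher and 36 lower (50.7%). CLN6, which fell in sh_TDP43 cells, also fell here, by 1.22 (SE 0.145, edgeR adjusted p = 4.31e-06). HMGB2 was at 706 and 679 CPM in the sh_SRSF3 libraries, against 324 and 296 CPM in the sh_control libraries, and rose by 1.16 (SE 0.108, adjusted p = 4.05e-07). FTL rose by 0.75 (SE 0.0924, adjusted p = 6.37e-06), so a class did not fix the direction of a single gene. With upper-quartile scaling the medians of all genes moved to 0.09 in sh_TDP43 and -0.19 in sh_SRSF3 cells, and the 3 classes together had 436 genes higher and 535 lower in sh_TDP43 (314 and 626 with TMM) and 482 higher and 798 lower in sh_SRSF3 (618 and 660 with TMM). Called shares of the 3 classes together were then 55.2% in sh_TDP43 and 72.7% in sh_SRSF3, beside 52.9% and 72.3% of genes recovered with neither. The TDP43-only genes alone then had 293 higher (33.3%) and 326 lower in sh_SRSF3, with a median of -0.02. Genes recovered with neither then had 32.2% higher and a median of -0.08. The balance of higher and lower TDP43-only genes thus depended on the scaling, and their higher share lay near that of genes recovered with neither.

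**Figure D5:**
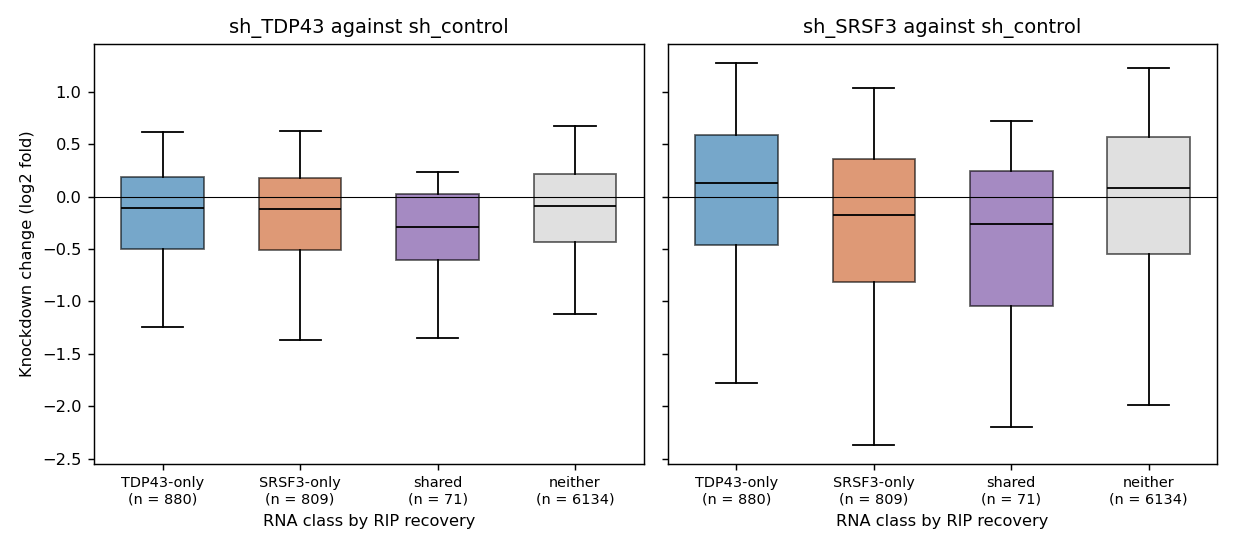
Knockdown change (log2 fold, edgeR) of genes by RIP class in sh_TDP43 (left) and sh_SRSF3 (right) against sh_control; boxes span the quartiles with the median as a line, and whiskers the 5th to 95th percentiles of the genes. Shared RNAs have the lowest median in both panels (-0.29 and -0.26), and the TDP43-only and SRSF3-only medians are 0.13 and -0.18 in sh_SRSF3 and -0.11 and -0.12 in sh_TDP43.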

How the data were processed

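The 4 RIP and input libraries and 6 knockdown libraries of MDA-MB231 cells were used. Per the file headers, the authors deposited FPKM per gene for the RIP libraries; a second deposited table gives a signal per gene, and no source used here names its unit. Knockdown values are read counts per gene deposited by the authors, made with featureCounts 1.4.6-p5 per the file headers. The submitters' processing notes list HISAT2 2.0.5, StringTie 1.3.0, Cufflinks, STAR 2.5.2a and GRCh37 but give no roles. RIP positions overlapped RefSeq GRCh38.p14 for 7612 of 7612 coding genes checked, so they are given as GRCh38. Gene symbols matched RefSeq for 8519 genes, and 76.7% of genes had a promoter entry. Depth was inferred from FPKM times length of U6 pseudogenes and olfactory receptor genes (89 to 122 per library), which came out as whole multiples of 1 step (within 0.05 base) for 71.9% to 84.3% of values.

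Recoveries used a pseudocount of 1 FPKM, which understates the change of low genes, in Python 3.11.15 with pandas 2.3.3. Counts (34457445 to 38326930 per library) went into edgeR 4.0.16 under R 4.3.3 (quasi-likelihood test, TMM, filterByExpr, all 6 libraries in 1 fit, 3 residual degrees of freedom) and, as an alternative, DESeq2 1.42.0. In simulated data 56.7% of 1.5-fold and 100% of 2-fold changes were recovered for sh_TDP43 (14665 genes), and 58.2% and 98.5% for sh_SRSF3 (14658 genes). Count columns that matched no label numbered 2 and were not used; the combined knockdown was not analysed here. Whether replicates came from separate cultures is not given, and p-values may reflect technical spread alone. Replicate libraries differed by more than sampling noise.

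The genes, lists (26) and classes were chosen with earlier results of these data known. Named genes are TARDBP, SRSF3, PARD3, NUMB, NEAT1 and MALAT1; among genes that passed the input minimum, the 10 TDP43-only and 10 SRSF3-only genes with the largest difference and the 10 shared genes with the largest lower recovery, restricted to genes of 300 bases or more with at least 10 FPKM in a RIP and the same sign in the second table; and up to 4 genes per list with the largest difference. Other genes were named after their values were seen. Alternatives covered the pseudocount, filter, scaling, denominator, table, fold and length, and for the counts the scaling, test, filter, replicate block and each replicate.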

Additional observations from a re-analysis of the deposited data

Results flagged for a closer look

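Results were listed here when the 2 recoveries lay on opposite sides of input: for a gene list, when both median recoveries passed 2-fold, and for a named gene, when both passed 4-fold in both RIP tables. Each group has 1 library, so the difference between the proteins was not tested. The lists were the histones, with a median recovery difference of -2.90, and the mitochondrially encoded RNAs, with -2.34. Toward Flag-TDP43, the differences were 7.91 for SCARNA2, 7.83 for SCARNA7, 5.67 for the U1 variant RNVU1-4, 5.07 for NDUFB1 and 4.81 for RPS3AP6. Toward Flag-SRSF3, they were -6.23 for HIST1H2BO, -5.73 for MT-CO1, -5.60 for FTL, -5.20 for HIST1H2BK, -4.56 for HSPB1 and -4.51 for TIMP1. RNVU1-4, RPS3AP6 and the histone genes have near-identical copies. MT-CO1 also has a processed copy that passed the filter, with a difference of -5.47. Copies of the other flagged genes were not examined.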

How the results depend on the processing

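With 1 library per RIP group, no replicate error stands behind the classes. The genes named as the top of each class had to keep their sign in the second table, so that run could not turn them. No list median past 2-fold and no naming-rule gene past 2-fold turned its sign under any alternative run. Smaller list medians did: zinc fingers (0.11) to -0.56 and translation factors (0.24) to -0.06 at an input minimum of 5 FPKM, and polarity (-0.11) to 0.36 in the second table, among others. Counts moved with the thresholds. Genes favouring Flag-TDP43 numbered 945 at a pseudocount of 5 FPKM, 891 at an input minimum of 5 FPKM, 2540 at a fold of 1.5 and 524 at a fold of 4, against 1679; those favouring Flag-SRSF3 numbered 1234, 1165 and 788 at the first, second and last of these, against 2204. Shared RNAs numbered 126 at a pseudocount of 0.1 FPKM, 32 at 5 FPKM, 38 at the higher input minimum, 139 without an input filter, 39 with upper-quartile scaling, 44 in the second table, 362 at a fold of 1.5 and 2 at a fold of 4, against 78. TDP43-only RNAs numbered 570 at a pseudocount of 5 FPKM, 507 at the higher input minimum, 1571 at a fold of 1.5 and 222 at a fold of 4; SRSF3-only RNAs numbered 436, 483, 1814 and 105 under the same 4. Requiring the class in both RIP tables, an alternative chosen after seeing the data, left 28 shared and 553 SRSF3-only RNAs. Lists with a median past 2-fold numbered 3 to 5, against 4.

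Genes called in the 3 classes together numbered 940 of 1760 in sh_TDP43 (53.4%) and 1278 of 1760 in sh_SRSF3 (72.6%). Of genes recovered with neither protein, 51.8% and 73.6% were called, so the classes together lay near those shares. The counts were 149 and 202 with classes at a fold of 4. They were 582 and 813 with classes held in both tables, because fewer genes are in the classes. Leaving out 1 replicate in turn gave 694 to 905 in sh_TDP43 and 1114 to 1250 in sh_SRSF3. Replicate numbers are shared between groups, but deviations of same-numbered libraries correlated at only 0.0755 to 0.12, so no pairing is taken from them; with the replicate block, 1073 and 1356 genes were called. The fall of TARDBP in sh_SRSF3 was not called without sh_control replicate 1.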

Other observations

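The levels of some RNAs relative to GAPDH differed between the RIP inputs and the control hairpin libraries, although the labels give the same library kit for all. HIST1H2BO was at 0.737 of GAPDH in FPKM in the Flag-TDP43 input and 0.757 in the Flag-SRSF3 input, against 0.000924 and 0.000893 (CPM per exon base) in the sh_control libraries. HIST1H1E was at 1.08 and 1.00 of GAPDH in these inputs, against 0.00121 and 0.00147 in the sh_control libraries. MT-CO1 went the other way, with 0.465 and 0.458 in the inputs, against 4.51 and 5.77 in the sh_control libraries. VIM was at 0.732 and 0.574 in FPKM, against 0.358 and 0.361. In the second table VIM was at 0.320 and 0.295 in the inputs, so its difference depended on the table. That table gave 0.224 and 0.2625 for HIST1H2BO, 0.324 and 0.357 for HIST1H1E, and 0.142 and 0.165 for MT-CO1. These 3 genes thus kept the direction of the difference from sh_control, but its size depended on the table. HIST1H2BO had 0.457 and 0.418 CPM in sh_control. HIST1H2BK was measured in the hairpin libraries, at 24.4 and 35.4 CPM in sh_TDP43 and 34.5 and 34.3 CPM in sh_SRSF3, against 10.8 and 14.5 CPM in sh_control. It rose by 1.24 in sh_TDP43 (edgeR adjusted p = 6.86e-05) and by 1.44 in sh_SRSF3 (edgeR adjusted p = 5.92e-06), 2 comparisons that share their control libraries.

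The 2 largest FPKM differences of all belonged to AL592188.6 and AL592188.3, of 57 and 49 bases, at 10.89 and 10.63, and the second table gave 0.85 and -0.11 for them.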
